A study of Homo sapiens with 24 samples.

Results

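The comparison described here set mtDNA-depleted HEK293 cells that carry an artificial route for NADH oxidation against mtDNA-depleted HEK293 cells that do not. It took 6 of the 24 arrays of the series, chosen by their sample titles: 3 of NDI1/AOX cells at day 9 (AOX/NDI1 in the titles) and 3 of DN-POLG cells at day 9. HEK293 is a human embryonic kidney line. Both groups carried a doxycycline-inducible dominant-negative form of DNA polymerase gamma, were kept on doxycycline for 9 days, and grew in high-glucose medium with uridine and pyruvate. NDI1/AOX cells also expressed NDI1 and AOX. The same lines at day 0, before doxycycline, gave 3 arrays each and show how far the lines already differed. Each array was 1 of 3 independent cultures of a line. The NDI1/AOX cells are a separate derivative line, so a difference owed to the 2 added enzymes and one owed to the derivation of the line cannot be told apart.

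DNA polymerase gamma, encoded by POLG, is the enzyme that copies mtDNA, and a dominant-negative form blocks replication until the mitochondrial genome is lost. Without mtDNA the respiratory chain cannot pass electrons from NADH to oxygen. NDI1 is a yeast enzyme that oxidises NADH in the matrix without pumping protons, and AOX, an alternative oxidase absent from mammals, passes the electrons to oxygen, so the pair restores mitochondrial NADH oxidation in the absence of respiratory complexes. Cells with a failing respiratory chain commonly switch on the integrated stress response, in which the transcription factor ATF4 raises genes for amino acid synthesis and transport, serine synthesis and the mitochondrial folate cycle. The question put by the comparison is which transcripts of mtDNA-depleted cells depend on NADH oxidation. Both transgenes come from other organisms, and no probe set of this human array was named for either.

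Signals below are MAS5 signals, in arbitrary linear units that are scaled so that all arrays have the same trimmed mean. A difference is the mean log2 signal of the 3 NDI1/AOX arrays minus that of the 3 DN-POLG arrays, given with its 95% interval from limma. A probe set was tested if it was named for 1 gene and its mean signal over the 18 HEK293 arrays reached 66.9, the median of all signals. This left 22246 probe sets of 11743 genes. Groups of arrays are called apart when every array of one is above every array of the other. Fewer cells expressing a gene and less RNA per cell cannot be told apart in these bulk samples.

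Of 2 signs of RNA quality, 1 overlapped between the groups and 1 did not. The 3′ to 5′ signal ratio of ACTB, which rises when RNA is degraded, was 1.27 to 1.52 in NDI1/AOX cells and 1.06 to 1.77 in DN-POLG cells (exact two-sided permutation p = 0.7, n = 3 per group, smallest possible p = 0.1). The ratio for GAPDH was 0.991 to 1.04 against 0.968 to 0.99, with the groups apart (exact two-sided permutation p = 0.1), and its part in the results was not tested. The median SD of log2 signals was 0.209 among the NDI1/AOX arrays and 0.261 among the DN-POLG arrays at day 9. HEK293 marker genes had a summed signal of 44420 to 47040 in NDI1/AOX cells and 45520 to 59220 in DN-POLG cells, and 10 of 12 lay above the filter in both. The 12 immune marker genes on the array summed to 388.8 to 470.8 and 348.7 to 472.3, and none was tested. In NDI1/AOX cells 2 of them had a group mean above the filter, and in DN-POLG cells 0.

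The POLG signal varied between the cultures, and whether it came from the transgene or from endogenous POLG was not tested. Probe set 217635_s_at of POLG read 4035, 2468 and 447.2 in the 3 NDI1/AOX cultures at day 9 and 2834, 4739 and 4268 in the DN-POLG cultures, against 196.8 to 274.2 and 280.1 to 421 in the same lines at day 0. NDI1/AOX replicate 3 was therefore the lowest day 9 array, about where the day 0 arrays lay, while the other 2 were within or close to the DN-POLG range. The difference was -1.23 (95% interval -2.35 to -0.10, adjusted p = 1). A second probe set, 203366_at, read 963.4 to 1327 in NDI1/AOX cells and 1019 to 1298 in DN-POLG cells at day 9. At day 0 it read 725.2 to 955.6 and 642.6 to 1295, so in NDI1/AOX cells every day 9 array lay above every day 0 array, while in DN-POLG cells the days overlapped.

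The array measured 7 of the 13 mRNAs encoded by mtDNA, and none passed the test. ND6, a complex I subunit and the one mRNA read from the light strand, had signals of 238, 409 and 549 in NDI1/AOX cells and 432, 580 and 547 in DN-POLG cells, while at day 0 it lay between 1590 and 4981 in the 2 lines. ATP6, a subunit of ATP synthase, read 5442, 3790 and 3797 against 2891, 4418 and 2712, down from 14100 to 22880 at day 0. Both groups at day 9 thus sat well below day 0 for these 2 transcripts, and they overlapped each other. COX2, a core subunit of cytochrome c oxidase, read 17170, 12670 and 17190 against 13800, 11820 and 10690, a difference of 0.37 (-0.14 to 0.87). COX1, ND2 and ND4 had differences of 0.01, 0.09 and -0.01, and COX3 of -0.40 with an interval from -2.35 to 1.55. The brightest of these probe sets, COX1, read 39390 to 45270 and 40020 to 44620, and 39320 to 59650 at day 0 over both lines. In NDI1/AOX replicate 3, whose POLG signal was low, ND6 read 549, about the same as in the DN-POLG cultures.

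Among all 11743 genes, 1 passed an adjusted p of 0.05 in limma, which is 0.00852% of the genes tested: HECTD4, higher in NDI1/AOX cells. No gene was lower. At an unadjusted p under 0.05, 248 genes were higher, 547 were lower and 9 had probe sets in both directions, and 3.94% of probe sets lay under that p. The median difference over all probe sets was 0.00. The typical 95% interval reached 0.631 to either side of the difference. Differences of more than 1 on the log2 scale were measured for 442 probe sets, 1.99% of those tested, 148 higher and 294 lower. The absence of further calls does not show that the transcriptomes were alike.

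HECTD4 encodes a large protein with a HECT domain, the catalytic domain of a family of ubiquitin ligases. It lies at chr12:112160195-112382431 (GRCh38.p14). Its brightest probe set, 211034_s_at, read 4523, 4521 and 3525 in NDI1/AOX cells and 867.1, 491.7 and 679.6 in DN-POLG cells at day 9. The groups were far apart, with a difference of 2.65 (2.19 to 3.12, adjusted p = 3.8e-05). The same probe set read 4455, 4420 and 4890 in NDI1/AOX cells at day 0 and 821.3, 650.6 and 559.4 in DN-POLG cells, a difference of 2.78. HECTD4 was also the only gene that passed at day 0 (0.00852% of genes), so the difference was there before doxycycline. The 2 other tested probe sets were apart in the same direction on both days. Probe set 1557529_at read 291.9, 356.5 and 232.7 against 54.68, 35.65 and 38.31 at day 9 (difference 2.78), and 1561130_at read 119.8, 163.2 and 73.42 against 54, 55.25 and 9.366 (difference 1.89). At day 0 these 2 read 607.3, 665.5 and 576.2 against 72.25, 68.44 and 69.75 (difference 3.13), and 798.9, 669.8 and 405.6 against 68.38, 9.509 and 56.13 (difference 4.18), so that in NDI1/AOX cells both were lower at day 9 than at day 0 with arrays apart. The 3 others, 1553821_at, 230216_at and 244378_at, had mean signals of 26.49 to 39.33, below the filter, and their groups overlapped at day 9. HECTD4 kept its call when any of the 6 arrays was left out. It lost it when the 6 arrays were fitted alone (adjusted p = 0.0713) and when the probe sets of a gene were averaged (adjusted p = 0.212). Without the _x_at and _s_at probe sets, which takes out 211034_s_at, it was called on neither day (adjusted p = 0.339 at day 9 and 0.333 at day 0 for 1557529_at).

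RAP1A had the largest difference of any tested probe set, although it did not pass. RAP1A encodes a small GTPase of the Ras family that acts in cell adhesion, and it lies at chr1:111542009-111716691 (GRCh38.p14). Probe set 1555339_at read 933.4, 1244 and 982.3 in NDI1/AOX cells and 37.35, 38.93 and 62.05 in DN-POLG cells at day 9, a difference of 4.54 (2.87 to 6.22, adjusted p = 0.162). At day 0 it read 681.4, 722.2 and 738.5 against 38.26, 16.21 and 15.76. A second probe set, 1555340_x_at, read 2335, 2028 and 1338 against 6.125, 3.367 and 20.09, with the same picture at day 0. It was not tested because its mean over the 18 arrays, most of which are DN-POLG arrays, fell below the filter. RAP1A passed on 1555339_at with 32 signal units added before the logarithm (adjusted p = 2.88e-06), with the 6 arrays fitted alone (adjusted p = 0.00525), and without NDI1/AOX replicate 2 (adjusted p = 0.0485). The 2 remaining probe sets did not share the large difference. The brightest one, 202362_at, read 8162, 8080 and 9822 against 8991, 8841 and 6896, the groups overlapping. Probe set 228548_at read 517.9, 614.3 and 509.4 against 480.7, 365.8 and 450.6 (difference 0.34). It was higher with arrays apart at day 9 and overlapped at day 0. The large difference was thus held by 2 of the 4 RAP1A probe sets on the array.

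**Figure D1:**
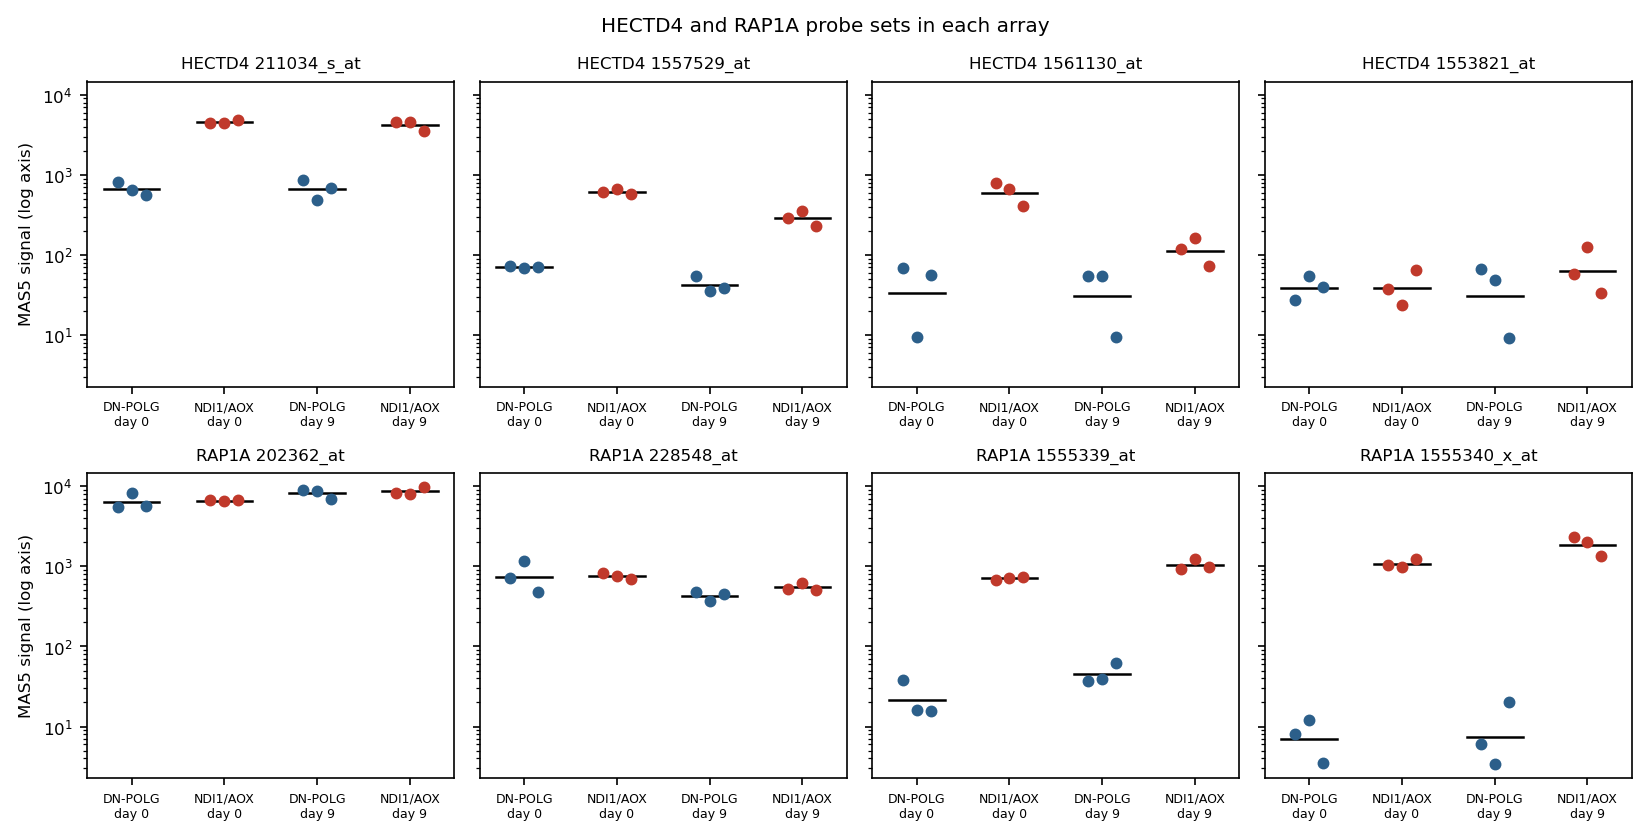
MAS5 signal (log axis) of 4 HECTD4 and 4 RAP1A probe sets in each array, with DN-POLG cells in blue, NDI1/AOX cells in red and the mean of log2 signals as a bar. The 3 brightest HECTD4 and 2 RAP1A probe sets are higher in every NDI1/AOX array than in any DN-POLG array on both days, while HECTD4 1553821_at and RAP1A 202362_at overlap.

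Because both genes stood apart on both days, their start regions are shown for reference. Each line gives 250 bases before and 50 bases from the annotated start in RefSeq (GRCh38.p14), 5′ to 3′ on the gene's strand, with every CG dinucleotide in capitals, since CG sites are where DNA methylation occurs.
HECTD4 (chr12:112382382-112382681, minus strand): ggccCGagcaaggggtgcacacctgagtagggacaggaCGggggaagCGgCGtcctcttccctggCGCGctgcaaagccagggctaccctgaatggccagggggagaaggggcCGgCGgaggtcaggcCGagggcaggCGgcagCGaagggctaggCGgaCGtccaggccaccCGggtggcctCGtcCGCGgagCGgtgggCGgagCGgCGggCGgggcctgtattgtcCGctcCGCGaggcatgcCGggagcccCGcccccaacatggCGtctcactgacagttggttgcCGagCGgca
RAP1A (chr1:111541759-111542058, plus strand): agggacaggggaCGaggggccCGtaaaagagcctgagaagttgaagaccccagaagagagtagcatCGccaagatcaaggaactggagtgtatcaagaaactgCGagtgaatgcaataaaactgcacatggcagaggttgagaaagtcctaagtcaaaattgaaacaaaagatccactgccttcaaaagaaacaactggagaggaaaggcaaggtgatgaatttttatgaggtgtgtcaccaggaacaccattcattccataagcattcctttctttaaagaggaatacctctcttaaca
The HECTD4 sequence held 30 CG dinucleotides, and 22.4% of all 35116 RefSeq start regions of this length held at least as many. The RAP1A sequence held 4, a number that 75.5% of the regions reached. The start regions of this pair therefore lay on either side of the median of 14. The search read 1 strand, which is sufficient because CG is its own reverse complement. No methylation data were used here.

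Day 0 was then used to sort the day 9 differences into those already present and those that were not. No gene passed the test of the day 9 difference against the day 0 difference, with 192 genes higher, 510 lower and 2 in both directions at an unadjusted p under 0.05. The standard error of that contrast is larger, at a median of 0.421 against 0.298 for day 9 alone. When the day 9 and day 0 differences were averaged, a contrast chosen after the values were seen, 3 genes passed (0.0255% of those tested): HECTD4 and RAP1A, higher, and SALL3, lower. SALL3 encodes a zinc finger transcription factor of the spalt family that acts in development. Its probe set 230785_at read 14.15, 45.09 and 47.82 in NDI1/AOX cells and 87.17, 122.3 and 63.02 in DN-POLG cells at day 9, and 21.86, 21.81 and 38.23 against 111.8, 119.9 and 132.9 at day 0. The lines were apart on both days, at signals near the filter. Of the 3 dimmer SALL3 probe sets, which overlapped at day 9, 2 were lower at day 0 too and 232847_at was higher (26.6, 27.29 and 15.16 against 12.64, 8.985 and 5.666). The SALL3 call in the mean of both days (adjusted p = 0.0488) was lost with quantile normalization (adjusted p = 0.053) and when any of 8 of the 12 arrays was left out, namely DN-POLG day 9 replicates 1 and 2 and all 6 day 0 arrays (adjusted p over the 12 from 0.0258 to 0.235). HECTD4 and RAP1A kept theirs in each of these fits.

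In all, 149 probe sets were higher with arrays apart on both days and 137 were lower on both, while 36 and 59 were apart in opposite directions. Of the 22246 tested, 1287 were higher and 1470 lower at day 9, and 1848 higher and 1359 lower at day 0. Whether the overlap exceeded what these totals imply was not tested. The day 0 and day 9 differences had a Pearson correlation of 0.157 across the 22246 probe sets, which share cell lines but no arrays. This is a description across probe sets, which are not independent. Only 7 probe sets, of 5 genes, were apart in the same direction with differences of more than 1 on both days: HECTD4 with 3, and RAP1A, SALL3, CEBPE and TRIP11 with 1 each. CEBPE, a C/EBP transcription factor known from granulocyte maturation, read 45.06, 45.51 and 250.6 against 401.9, 328.3 and 415.4 at day 9 (difference -2.25, -3.78 to -0.72). NDI1/AOX replicate 3 was the array nearest to the DN-POLG range. PPP2R5E, a regulatory subunit of protein phosphatase 2A, read 1427, 1117 and 1186 against 688, 723 and 767 (difference 0.77, 0.32 to 1.22), with 0.94 at day 0. PTGR1, which reduces leukotrienes, prostaglandins and reactive aldehydes, read 1110, 935 and 1054 against 572, 498 and 700 (0.82, 0.26 to 1.37), with 1.14 at day 0. These 2 genes, chosen after their values were seen, had the lines apart at signals well above the filter. Neither passed on day 9 alone (adjusted p = 0.529 and 0.696).

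**Figure D2:**
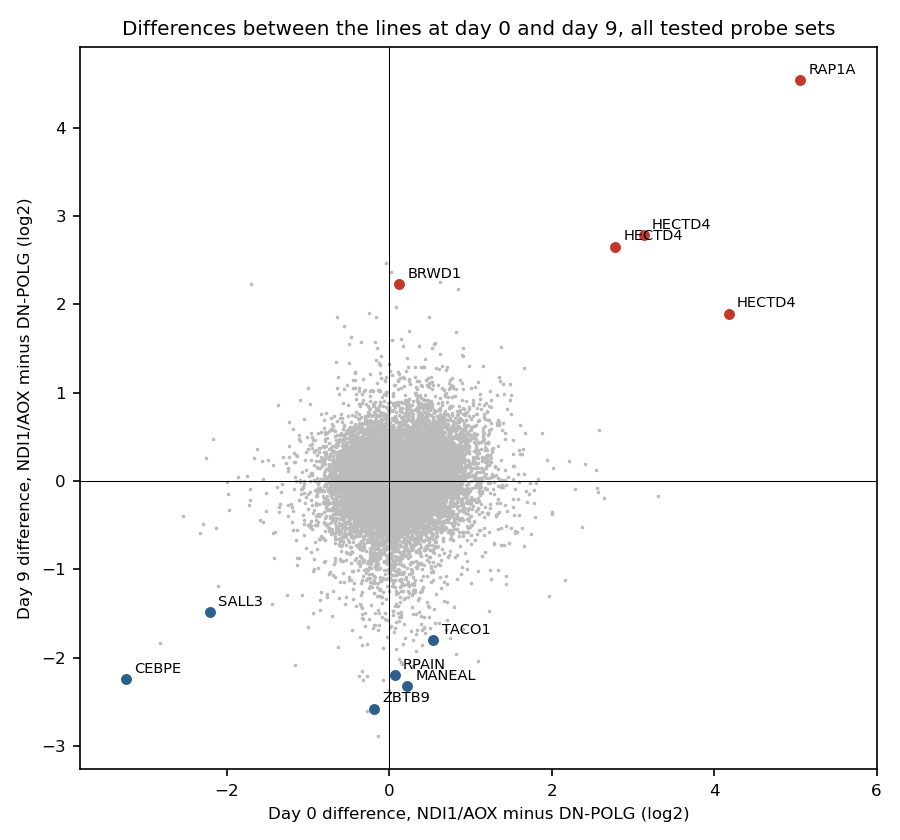
Difference between NDI1/AOX and DN-POLG cells at day 9 against that at day 0 (log2), 1 point for each of the 22246 tested probe sets, with named probe sets in red (higher at day 9) and blue (lower). HECTD4 and RAP1A lie far out on both axes, whereas BRWD1, ZBTB9, MANEAL and RPAIN lie near 0 at day 0. TACO1 lies on the higher side at day 0 (0.54) and on the lower side at day 9.

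The probe sets with the smallest p at day 9 after HECTD4 and RAP1A are described next, in 2 groups, a choice made after their values were seen. None passed the adjustment. BRWD1, a bromodomain protein that binds acetylated chromatin, read 95.37, 91.28 and 65.74 on 231860_at against 12.45, 39.51 and 11.4 (difference 2.22, 1.44 to 3.01, adjusted p = 0.162), with 0.12 at day 0. Its brightest probe set, 225446_at, went the other way, at 1770, 1441 and 1720 against 2093, 2156 and 1984. TACO1, needed for translation of mtDNA-encoded COX1, read 44.63, 30.31 and 43.11 on 229680_at against 89.19, 154.1 and 179.1 (-1.80, -2.45 to -1.15, adjusted p = 0.162), whereas 221069_s_at read 1458, 1230 and 1831 against 2258, 1729 and 1352. At day 0 the lines overlapped on 229680_at, with a difference of 0.54. HTRA1, a secreted serine protease, has 1 probe set, which read 83.47, 76.78 and 65.47 against 129.8, 130.8 and 143.4 (-0.85, -1.22 to -0.47, adjusted p = 0.351) and 170.8 to 186.5 in all 6 arrays of day 0. CHRDL1, a secreted antagonist of bone morphogenetic proteins, read 80.12, 80.29 and 65.25 against 170.8, 217 and 164.2 (-1.29, -1.86 to -0.71). At day 0 it read 72.62, 85.66 and 66.76 against 188.7, 79.66 and 136.9 (difference -0.77), the lines overlapping. MGA, a partner of MAX that opposes MYC target genes, read 85.61, 98.08 and 89.92 on 230848_s_at against 214.4, 226.3 and 174.2 (-1.16), while its 2 other tested probe sets differed by 0.18 and 0.06. PLPBP, a pyridoxal phosphate binding protein, read 43.02, 41.2 and 63.54 on 216519_s_at against 135.9, 154.6 and 91.79 (-1.37, adjusted p = 0.285), while its 3 brighter probe sets overlapped. For BRWD1, TACO1, MGA and PLPBP the small p therefore came from one probe set of several, and the gene's brighter probe sets did not share it. SLC1A6 was lower with arrays apart on 1554593_s_at (-1.88, with -0.62 at day 0) and on 1554592_a_at (-1.39), which lay below the filter. Its probe set 206882_at overlapped. TAF9B was lower with arrays apart on 221616_s_at (-1.66) and 221617_at (-0.98), while its brighter probe sets overlapped. LCE1E 1559224_at (-2.21) and ATP6V0E1 214244_s_at (-0.90, with -0.42 at day 0) were lower with arrays apart, while brighter probe sets of each overlapped.

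Many of the lower probe sets followed the same course, in which NDI1/AOX replicates 1 and 3 were lowest and replicate 2 lay closer to DN-POLG cells. ZBTB9, a zinc finger and BTB domain protein, read 6.874, 39.11 and 8.764 on 226163_at against 106.3, 97.35 and 48.63 (-2.58, adjusted p = 0.191), and 233.4 to 304.8 at day 0. MANEAL, a mannosidase-like protein, read 13.27, 42.25 and 8.748 on 231564_at against 145.5, 62.55 and 68.16 (-2.33, adjusted p = 0.244), while its brightest probe set differed by 0.21. RPAIN, which carries replication protein A into the nucleus, read 183.8, 844.1 and 271.1 on 216962_at against 1686, 1587 and 1512, and 1031 to 1413 in the day 0 arrays. BIRC5 (survivin, an inhibitor of apoptosis needed for cytokinesis) read 185.9, 579.1 and 252.4 on 1555826_at against 1029, 964.4 and 732. RPL27A, a protein of the large ribosomal subunit, read 684.6, 2107 and 927.4 against 3946, 2737 and 3210. Over the 600 probe sets lower at an unadjusted p under 0.05, replicate 2 was the NDI1/AOX array nearest to DN-POLG in 372 (62%), and replicates 1 and 3 in 114 each.

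This one array set how many genes passed. Without NDI1/AOX replicate 2, 90 genes were lower and 3 were higher (HECTD4, RAP1A and BRWD1) at an adjusted p under 0.05 in limma. Leaving out any other array gave 1 to 4 genes higher and 0 or 1 lower. The 94 probe sets of those 90 genes had a median log2 signal relative to the DN-POLG mean of -2.03 in replicate 1, -0.31 in replicate 2 and -1.81 in replicate 3. In 90 of the 94, replicates 1 and 3 were also below every day 0 array of both lines. Replicate 2 lay within or above the DN-POLG day 9 arrays in 41 of the 94, and below all of them in the others. Among the genes were RPL14, RPL37A and RPL27A, MRPL12 and MRPS15 of the mitochondrial ribosome, the glycolytic enzyme gene ENO1, and PANK2, a pantothenate kinase of coenzyme A synthesis. PANK2 read 391.7, 1911 and 484.1 on 228966_at against 1964, 2434 and 2559. ENO1 read 789.1, 2643 and 865.3 on 216554_s_at against 4592, 3112 and 2979.

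In most of these genes the low signals were not shared by the brightest probe set. In 75 of the 90 genes the brightest probe set was another one, and in the rest it was itself a probe set that passed. In the 75, its median difference with all arrays was -0.06 (range -0.32 to 0.70), against -1.43 for the probe sets that passed. Of these 75 brightest probe sets, 8 were lower with arrays apart, against 6.74% of all genes. ENO1 had differences of -0.13 and -0.12 on its 2 brightest probe sets, RPL14 of -0.19 and -0.20, and RPL37A of -0.23 on its brightest. In PANK2 the brightest differed by -0.14, but 228735_s_at differed by -1.28. In RPAIN the brightest differed by -0.08, but 216961_s_at differed by -0.83. The 94 probe sets were selected on these arrays, so the contrast is a description. A model that weights each array by its agreement with its group gave 21 genes higher and 104 lower, with weights of 2.70, 0.85 and 0.96 for NDI1/AOX replicates 1 to 3 and 0.71, 1.48 and 0.72 for DN-POLG. The ACTB ratio of NDI1/AOX replicate 2 was 1.52 against 1.27 and 1.36 in the others, and its part in the result was not tested.

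**Figure D3:**
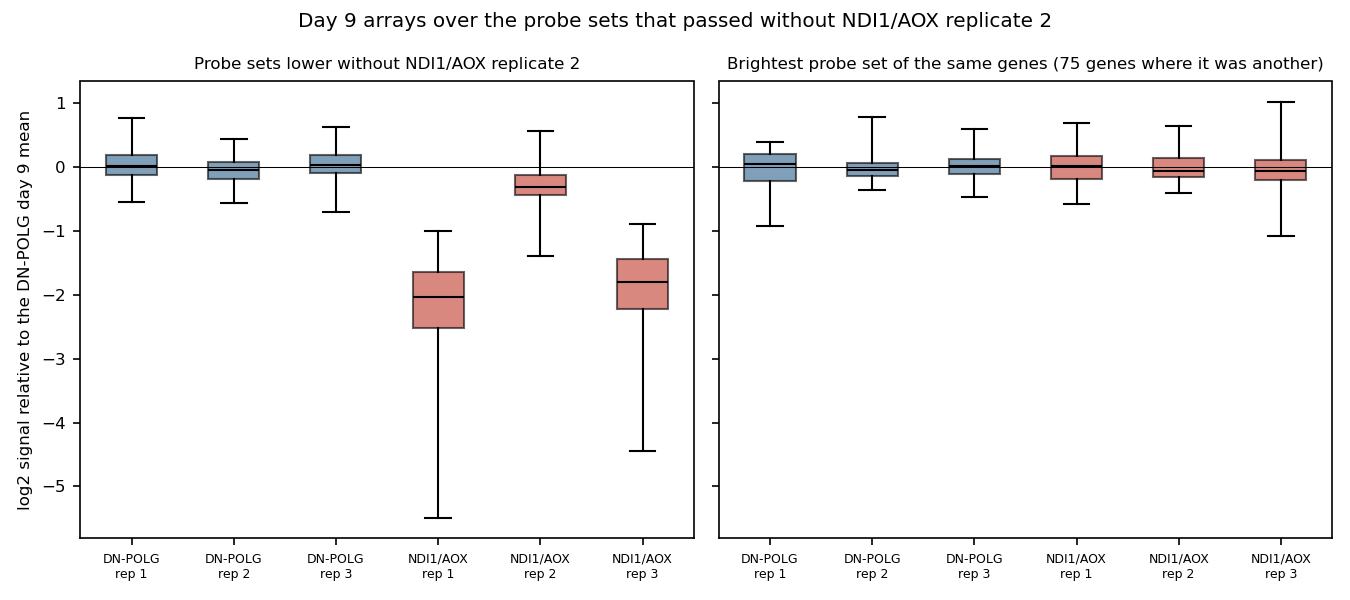
Log2 signal relative to the DN-POLG day 9 mean in each day 9 array, for the 94 probe sets that passed as lower without NDI1/AOX replicate 2 (left) and the brightest probe set of the same genes where it was another (right), with boxes for quartiles and whiskers for the full range. The medians of replicates 1 and 3 are -2.03 and -1.81 on the left and 0.01 and -0.06 on the right.

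Gene lists were described on the brightest tested probe set of each gene, and some genes belong to more than 1 list. Over all genes, 5.59% were higher and 6.74% lower with arrays apart on this basis, and the median difference was -0.01. For the day 0 counts below, 1848 of all 22246 tested probe sets were higher and 1359 lower with arrays apart at day 0. That background counts probe sets rather than genes. No member of any list passed the adjusted test.

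Transcripts of the integrated stress response were on the low side in NDI1/AOX cells. Of 34 ATF4 targets, 31 were tested, 29 of them had a difference below 0, and 5 (16.1%) were lower with arrays apart, none higher. Their median difference was -0.30. Without NDI1/AOX replicate 3, the culture with the low POLG signal, it was -0.09, with 7 (22.6%) lower and none higher with arrays apart, against 11.2% and 10.5% of all genes in the 5 arrays. Leaving out any other array gave medians from -0.40 to -0.25. TRIB3, a pseudokinase that feeds back on ATF4, read 816, 667 and 541 against 1439, 1368 and 906 (-0.87, -1.47 to -0.27, adjusted p = 0.725). DDIT4, an inhibitor of mTORC1, read 655, 691 and 690 against 1156, 1711 and 1324 (-1.02, -1.81 to -0.24), although at day 0 it was the NDI1/AOX cells that had the higher mean, with a difference of 1.10. DDIT3, the stress transcription factor CHOP, read 1990, 1832 and 1302 against 3413, 2445 and 2092 (-0.63, -1.29 to 0.04). ASNS, asparagine synthetase, read 22070, 19270 and 15030 against 35730, 22990 and 21730 (-0.49, -1.05 to 0.06), the groups overlapping by little. ATF4 itself read 28440, 29670 and 27930 against 38390, 26810 and 35050 (-0.20, -0.77 to 0.36), and the regulator NUPR1 731, 534 and 276 against 742, 675 and 499. At day 0 the same 31 genes had a median difference of 0.23, and 5 were higher with arrays apart. Among 19 regulators of the response, 2 were higher and 2 lower with arrays apart, with a median of -0.13. The higher ones were EIF2AK2 and EIF2AK4. The lower ones were TRIB3 and DDIT3, already counted among the ATF4 targets.

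Enzymes of serine synthesis and the folate cycle gave few differences. Of 11 tested genes of serine and glycine metabolism, 10 were below 0 and 1 was lower with arrays apart (median -0.16). PHGDH, which commits glycolytic carbon to serine, read 8793, 7730 and 6184 against 11000, 7699 and 9331 (-0.30, -0.75 to 0.14). The apart member was SRR, serine racemase, at 560, 916 and 522 against 1444, 1105 and 937 (-0.83). MTHFD2, the mitochondrial folate enzyme, read 13280, 12740 and 11540 against 17410, 15430 and 14400, with the groups apart (-0.33, -0.67 to 0.01, adjusted p = 1). For comparison, day 0 signals of MTHFD2 were 9205 to 10130 and 8397 to 10410, so both lines lay higher at day 9 than at day 0. Of 12 folate enzymes 1 was higher and 2 lower, with a median of -0.06.

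The methionine cycle, polyamine and methylation genes were close to 0. None of 15 methionine cycle genes was apart (median -0.02). MTRR, which reactivates methionine synthase, had the smallest p among them and read 619, 465 and 874 against 1174, 1000 and 691 (-0.56, -1.05 to -0.07), with -0.59 at day 0. Of 20 polyamine genes 1 was higher and 1 lower with arrays apart. SAT1, the rate-limiting enzyme of polyamine breakdown, differed by -0.12 (-0.68 to 0.44) on its brightest probe set, and the spermine synthase SMS read 18210, 17830 and 17570 against 13100, 15950 and 14880 (0.29, -0.07 to 0.66). Of 15 genes listed for DNA methylation and demethylation, 1 was apart: IDH2, a mitochondrial NADP-linked isocitrate dehydrogenase, at 1677, 1285 and 1372 against 2731, 2341 and 1838 (-0.66, -1.22 to -0.10). IDH2 is also counted among the TCA cycle genes, and no DNMT or TET gene was apart. DNMT1, DNMT3A and DNMT3B differed by 0.04, 0.25 and -0.09, and TET1, TET2 and TET3 by -0.04, 0.11 and 0.43, all with intervals across 0. Of 49 histone modifying enzymes 7 (14.3%) were higher and 1 lower with arrays apart (median 0.07), among them DOT1L at 338, 436 and 321 against 224, 245 and 225.

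Of the metabolic cytokines and regulators named in the study, those tested overlapped between the groups. GDF15, a stress cytokine, read 1706, 1506 and 1663 against 2337, 2760 and 1321 (-0.33, -1.03 to 0.37). FGF21, another such cytokine, and BHMT, which remethylates homocysteine with betaine, were below the filter, with day 9 signals of 12.81 to 44.24 and 10.35 to 56.38. MYC differed by 0.02 (-1.10 to 1.15), the nuclear receptor PPARA by -0.11 (-0.59 to 0.38) and the lipid transporter MFSD2A by 0.03 (-0.51 to 0.57).

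Endoplasmic reticulum genes had the largest share of members apart among the lists of more than 20 tested genes. Of 21 genes, 7 (33.3%) were lower with arrays apart and none was higher, with a median of -0.24. They were the chaperones HSPA5, CALR, CANX and SDF2L1 and the disulfide isomerases PDIA3, PDIA4 and PDIA6. PDIA4 read 2028, 2071 and 1384 against 2415, 2711 and 3069 (-0.60, -1.26 to 0.07). CANX read 10940, 11320 and 8675 against 13760, 12690 and 12880 (-0.36, -0.76 to 0.05), and PDIA6 read 5527, 5739 and 4221 against 7366, 7064 and 6847 (-0.47, -1.06 to 0.11). NDI1/AOX replicate 3 was the lowest array in each of these 3 genes. Without that array the median was -0.17. Then 8 genes (38.1%) were lower and 1 (4.76%) higher with arrays apart, against 11.2% and 10.5% of all genes. At day 0 the list had a median of -0.05, with none lower and 2 higher with arrays apart. Of the 7, HSPA5, CALR and SDF2L1 had day 0 differences (-0.32, -0.34 and -0.47) about as large as or larger than those of day 9 (-0.34, -0.22 and -0.32). Sterol synthesis genes had 4 of 23 (17.4%) lower and none higher (median -0.16), among them DHCR7, the last step of cholesterol synthesis, at 505, 483 and 430 against 732, 545 and 633.

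Cell division genes lay on the other side. Of 34 proliferation genes, 8 (23.5%) were higher with arrays apart and none was lower, with a median of 0.14 against -0.12 at day 0. The median was 0.06 without DN-POLG replicate 1, with 9 higher and none lower (9.55% and 9.9% of all genes). Without NDI1/AOX replicate 3 it was also 0.06, with 8 higher and 3 lower (10.5% and 11.2% of all genes), and without NDI1/AOX replicate 2 it was 0.19, with 15 higher (12.3% of all genes). The 8 were the mitotic genes CCNB1, BUB1, BUB1B, CENPF, KIF11 and NUSAP1 and the replication helicase genes MCM3 and MCM6. KIF11, the spindle motor, read 2218, 2020 and 2141 against 1282, 1638 and 1647 (0.49, 0.02 to 0.97), with day 0 signals of 2067 to 3735. BUB1B, a spindle checkpoint kinase, read 6791, 6219 and 6641 against 4551, 4374 and 5726 (0.43, -0.01 to 0.87). PLK1, a mitotic kinase, had the largest difference of the list, 0.65 (0.08 to 1.21), but overlapped, at 958, 444 and 778 against 557, 398 and 389. Not all members went this way, since CENPE, a kinetochore motor, read 748, 876 and 1280 against 1371, 1069 and 1252 (-0.38, -0.87 to 0.12).

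**Figure D4:**
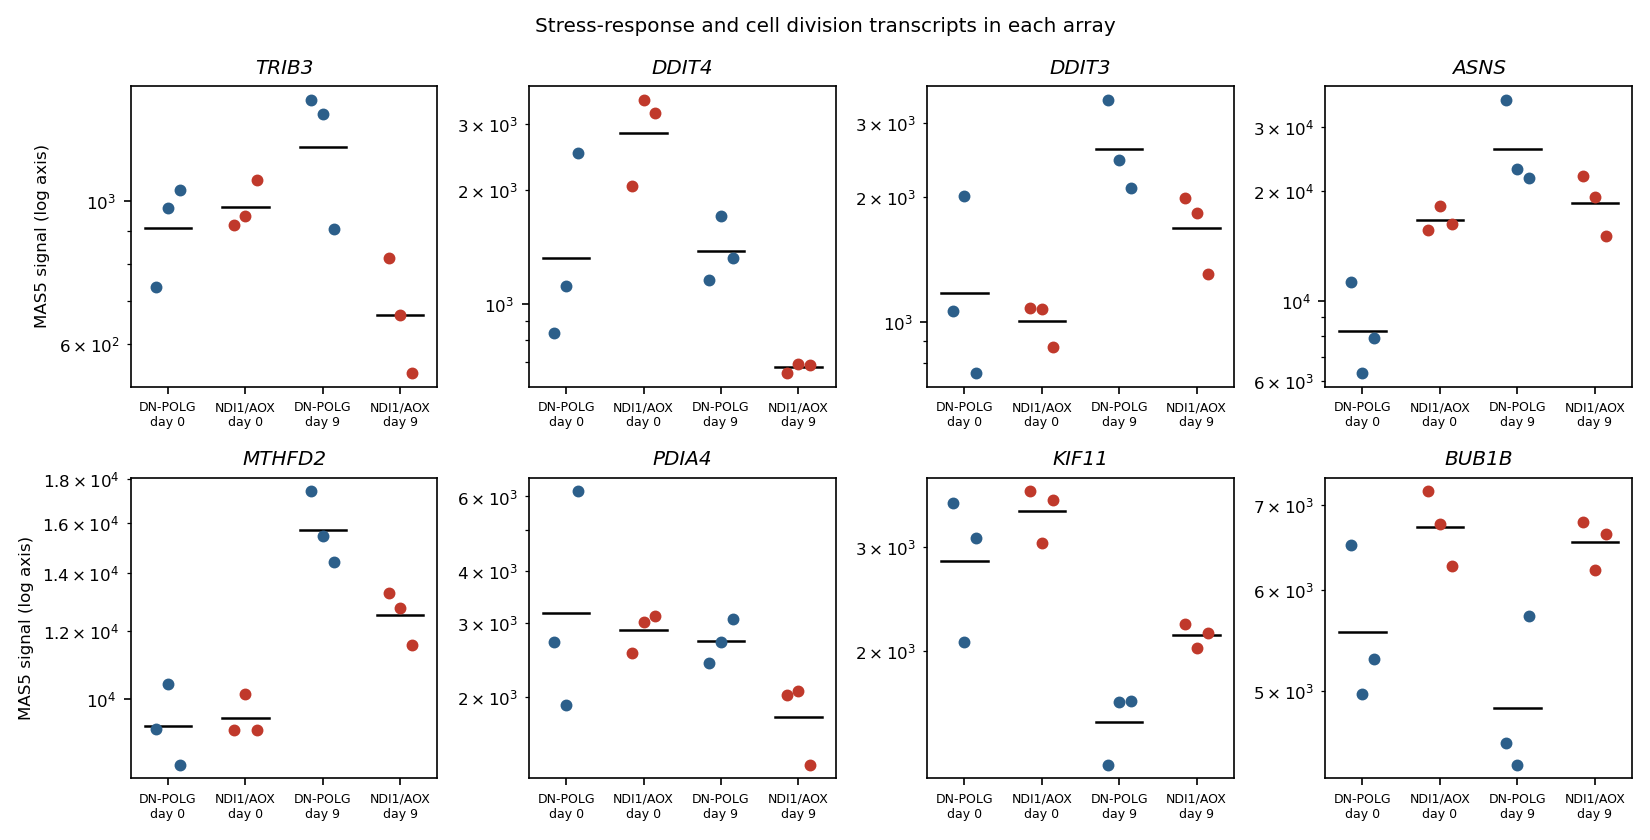
MAS5 signal (log axis, scaled per gene) of 6 stress-related and 2 cell division transcripts in each array, with DN-POLG cells in blue, NDI1/AOX cells in red and the mean of log2 signals as a bar. At day 9 TRIB3, DDIT4, DDIT3, MTHFD2 and PDIA4 are lower in every NDI1/AOX array and KIF11 and BUB1B higher, while ASNS overlaps.

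Nuclear genes of mitochondria differed little. Of 33 tested complex I subunits, 30 were below 0 and 4 (12.1%) were lower with arrays apart (median -0.10). The day 0 median was lower, at -0.25, with 12 members lower with arrays apart, against 1359 of all 22246 probe sets. NDUFS6, with the largest difference, read 12500, 14500 and 20840 against 23410, 18610 and 23190. Subunits of complexes II to V had 2 of 38 lower (median -0.08), and 16 at day 0. Mitochondrial ribosomal proteins had 1 of 73 higher and 7 (9.59%) lower (median -0.10). Genes of mtDNA maintenance had 2 of 20 lower. Among 17 genes of mitochondrial dynamics and mitophagy 5 (29.4%) were higher and 1 lower (median 0.11, and 0.04 to 0.21 when 1 array was left out, lowest without DN-POLG replicate 3). SQSTM1, a cargo receptor of autophagy, read 2562, 2202 and 3135 against 1868, 2066 and 1728 (0.47, -0.03 to 0.97), and the fission GTPase DNM1L 6063, 5743 and 5908 against 4225, 4567 and 5445 (0.32, -0.11 to 0.76). The mitophagy receptor BNIP3L and the fusion GTPase OPA1 were apart in the same direction, by 0.30 and 0.28. At day 0 SQSTM1, DNM1L, BNIP3L and OPA1 differed by -0.29, 0.30, -0.09 and 0.03.

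Central carbon metabolism was largely level. TCA cycle genes had 2 of 21 higher and 2 lower (median -0.03), with the E2 subunit DLST at 1200, 1586 and 1549 against 1137, 1050 and 756. Glycolysis genes had 2 of 23 higher and none lower (median 0.04). NADH shuttle and NAD synthesis genes had 2 of 23 higher and 3 lower (median -0.04), the lower ones including SLC25A51, the mitochondrial NAD carrier, at 254, 296 and 236 against 357, 332 and 345 (-0.40, -0.79 to -0.02), and GOT1 of the malate-aspartate shuttle at 1589, 1439 and 1540 against 2144, 1805 and 1902. Acetyl-CoA supply genes had none of 22 higher and 1 lower. PPAR and mitochondrial biogenesis regulators had none of 17 apart (median 0.10). Of 19 hypoxia-responsive genes 1 was higher and 1 lower, the latter EGLN3, an oxygen-sensing prolyl hydroxylase, at 35, 36 and 59 against 101, 89 and 83 (-1.11, -1.74 to -0.47, adjusted p = 0.522).

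**Figure D5:**
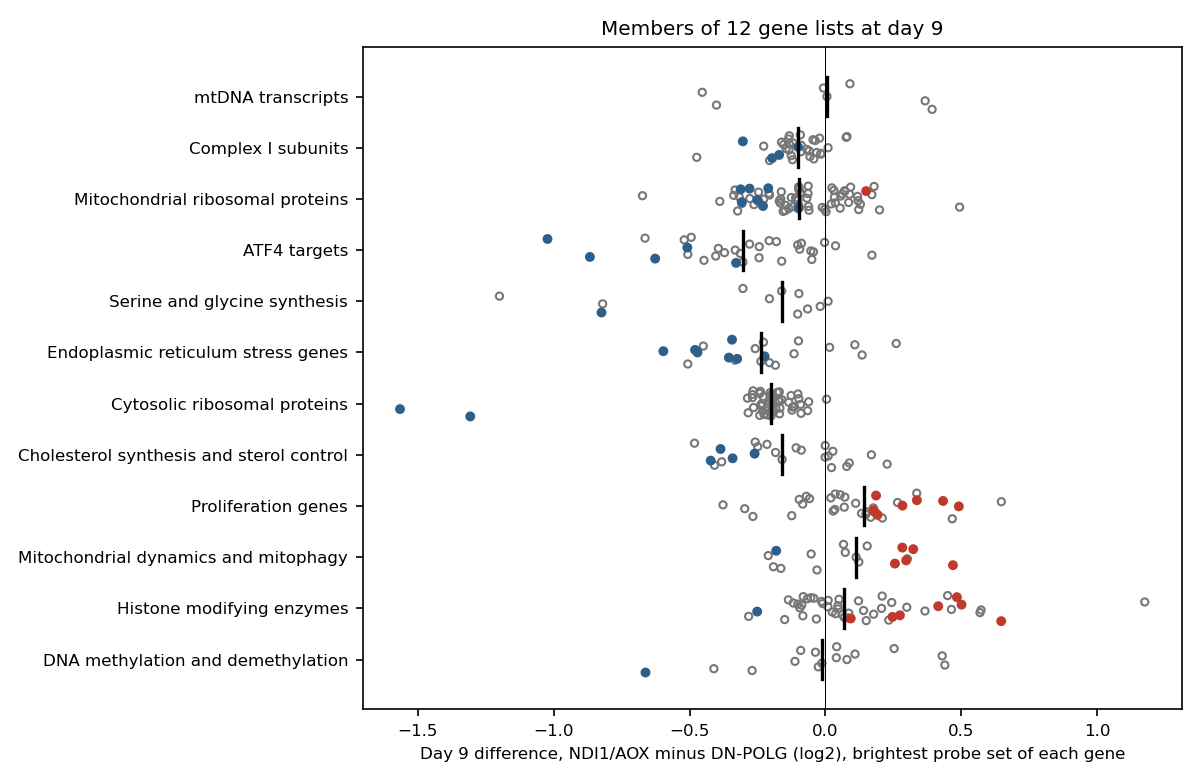
Day 9 difference between NDI1/AOX and DN-POLG cells (log2, brightest probe set) for the tested members of 12 gene lists, with 1 point per gene, filled where the arrays were apart (red higher, blue lower), and the list median as a bar. Medians run from -0.30 for ATF4 targets to 0.14 for proliferation genes.

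Cytosolic ribosomal protein genes were narrowly spread, with 49 of 50 below 0, a median of -0.20 and only 2 apart. The 2 were RPL27A and RPLP2, the latter at 138, 311 and 120 against 395, 463 and 429. The day 0 median was -0.26. Histone genes had 1 of 13 higher and 3 lower (median -0.30), with H3-3A at 119, 324 and 114 against 366, 414 and 558. RPL27A, RPLP2 and H3-3A all had NDI1/AOX replicate 2 well above replicates 1 and 3. Antioxidant genes had 1 of 20 higher and 3 lower (median -0.10), with the manganese superoxide dismutase gene SOD2 at 635, 1308 and 717 against 1442, 1885 and 1893. Immediate early genes had none of 23 higher and 3 lower (median -0.25, and -0.34 at day 0).

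Developmental and signalling genes had shares apart near those of all genes. Wnt and planar polarity genes had none of 32 higher and 3 (9.38%) lower with arrays apart, while 21 had a difference above 0 (median 0.11). SFRP1, a secreted Wnt antagonist, read 383, 434 and 461 against 716, 645 and 741 (-0.72, -1.21 to -0.23, adjusted p = 0.696), with -0.61 at day 0. The Wnt receptor FZD7 read 377, 395 and 352 against 650, 713 and 584 (-0.79, -1.47 to -0.11), with 0.08 at day 0. Kidney and neural development regulators had 1 of 29 (3.45%) higher and 3 (10.3%) lower (median -0.14), among them ID1, an inhibitor of basic helix-loop-helix factors, at 327, 238 and 330 against 759, 583 and 434 (-0.97, -1.54 to -0.40, adjusted p = 0.529). HOX genes had 2 of 20 (10%) lower (median -0.13), with HOXB3 at 481, 658 and 515 against 842, 697 and 1011.

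Markers of other cell types that were apart were lower in NDI1/AOX cells. Mesenchymal, neuronal and epithelial markers had 1 of 11 (9.09%), 2 of 9 (22.2%) and 1 of 6 (16.7%) tested members lower with arrays apart, against 6.74% of all genes, and none higher. HEK293 markers had 1 of 10 lower. The summed mesenchymal signal was 10900 to 11110 in NDI1/AOX cells and 11270 to 12680 in DN-POLG cells, so that the groups were apart by a narrow gap, and its part in the other results was not tested. The 12 lists not described above, with 208 tested members, had medians from -0.23 to 0.19, with 9 members (4.33%) higher and 17 (8.17%) lower with arrays apart.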

How the data were processed

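RNA from 3 independent cultures per group was amplified with a 3′ IVT kit and hybridised to Affymetrix Human Genome U133 Plus 2.0 arrays. The authors scanned the arrays and ran the MAS5 algorithm in Expression Console. What they deposited are linear signal intensities for 54675 probe sets per array, with each array scaled to a 2% trimmed mean of 500.1. No counts exist, so depth does not apply and the number of arrays limits the precision. Genes were named from the platform annotation and updated through RefSeq: 41097 probe sets had 1 symbol, 1801 several and 11777 none, and 41043 of the first matched.

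Log2 intensities with nothing added were fitted with limma 3.58.1 in R 4.3.3 over the 18 HEK293 arrays of 6 groups, which share 1 estimate of the spread, with Benjamini-Hochberg adjustment over the 22246 tested probe sets. A gene was called when any of its probe sets had an adjusted p under 0.05. Named genes were POLG and mtDNA transcripts, genes the study names, the largest called changes, and up to 4 members of each of 47 lists with the smallest p. Members and lists were chosen with earlier results of these data known. The fit was tested on simulated data. Replicate numbers count culture rounds within a line. The alternatives tried are given in the closing section.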

Additional observations from a re-analysis of the deposited data

How the results depend on the processing

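HECTD4 was the gene called as higher at day 9 with quantile normalization, equal array medians, the stricter filter, a trended and robust fit, no moderation (the linear model of the methods) and 17 arrays (without DN-POLG day 6 replicate 1, added after seeing the data), with 0 lower in each. The replicate number fitted as a block gave 1 gene higher and 0 lower at day 9, as did the culture round as a random block (correlation 0.022), and the block changed no call at day 0 or of the difference between days. Same-numbered day 9 arrays of the 2 lines had deviations correlated at 0.04, -0.13 and -0.24, so the numbers were not taken to pair them. Fitting the 6 arrays alone called RAP1A in place of HECTD4.

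Other counts moved. Without a signal filter there were 5 higher and 8 lower at day 9, 2 higher at day 0, and 1 higher and 3 lower for the difference between days. With 32 units added there were 2 higher at day 9 and 2 at day 0. With the 12 arrays of days 0 and 9 there were 2 higher at day 9, and 2 higher and 1 lower at day 0. Array weights gave 21 higher and 104 lower at day 9, 635 and 386 at day 0, 22 and 69 for the difference, and 68 and 110 for the mean of both days. Without _x_at and _s_at probe sets 0 were higher on either day, and 0 at day 9 with probe sets averaged. The filter on the higher group mean, added after seeing the data, gave 2 higher and 1 lower (LPCAT2) at day 9, 2 higher at day 0 and 1 lower for the difference. Quantile normalization left 0 lower for the mean of both days, which takes out SALL3. Leaving out 1 array gave 1 to 4 higher and 0 to 90 lower at day 9, 1 higher and 0 or 1 lower at day 0, 0 to 2 higher and 0 to 10 lower for the difference, and, added after seeing the data, 2 to 4 higher and 0 to 15 lower for the mean of both days, 15 of them without NDI1/AOX day 9 replicate 2. The cause was not tested.

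Of the values of named genes under the alternatives, 1517 kept direction and side of the threshold, 29 passed anew, 2 no longer passed and 21 reversed, all of them differences near 0 in genes not called, except COX3, whose interval was wide. SAT1 was 0.060 and ND4 0.054 with quantile normalization, COX1 -0.0034 with equal medians, ND4 0.057 with array weights, and MFSD2A -0.21 and ND4 0.072 with probe sets averaged. When 1 of the 6 arrays was left out, MYC ranged from -0.21 to 0.16, PPARA from -0.30 to 0.069, MFSD2A from -0.13 to 0.13, ND2 from -0.065 to 0.29, ND4 from -0.057 to 0.050, COX1 from -0.043 to 0.069 and COX3 from -1.01 to 0.65. Of the list medians, 1001 values moved by less than the spread between replicates and 11 by more, among them proliferation genes (0.061 without DN-POLG replicate 1, 0.055 without NDI1/AOX replicate 3, 0.035 with probe sets averaged).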
